A study of Mus musculus with 9 samples.

Results

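Gene expression in the proximal colon was compared between 3 mice homozygous-mutant at Shmt1 in the study's naming (labelled "mut cSHMT", called mutant here) and 3 heterozygous mice. These are 6 of the 9 arrays of the study, chosen by the genotype in their titles, and the other 3 arrays are of wild-type colons. All mice were of the C57Bl/6 strain after 10 generations of backcrossing, were 9 weeks old, and had been weaned at 3 weeks onto an AIN-93G diet that lacked folate and choline. The label fields disagree on how long they ate it, 6 weeks or 5 weeks. No mouse on a complete diet is among these samples, so every difference below is between genotypes on the deficient diet. The labels do not say how Shmt1 was altered, whether any protein remains, or from which litters the mice came, and they give no sex. The piece assayed was the opened and rinsed wall of the proximal colon, which holds epithelium, muscle, nerve, fat and blood vessels. In such a piece, fewer cells of a type and less RNA per cell cannot be told apart.

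Shmt1 encodes the cytosolic serine hydroxymethyltransferase, also written cSHMT. The enzyme moves a carbon unit from serine to tetrahydrofolate, which supplies the thymidylate, purine and methionine pathways. Shmt2 encodes its mitochondrial counterpart. Folate and choline both supply methyl groups, so a diet without them limits the same pool from a pair of sides.

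Each array gave 1 linear signal for each of 22626 probe sets, and 13576 were bright enough to be tested. A probe set is a group of short probes for 1 transcript, and a gene can have several. Differences are on the normalised log2(signal + 16) scale, mutant minus heterozygous, with the standard error (SE) of the limma fit, while the signals given for single arrays are the deposited linear values. A gene is called changed where limma's Benjamini-Hochberg adjusted p was under 0.05. For counts over genes, each of 8202 genes was represented by its brightest tested probe set. Over all 22626 probe sets, dim ones included, the 6 arrays correlated between 0.9879 and 0.9928. Beta-actin signal at the 3' end over that at the 5' end, which is higher in shortened RNA, was 4.45, 3.05 and 2.57 in heterozygous arrays 1 to 3 and 4.84, 3.75 and 2.73 in mutant arrays 1 to 3. In both genotypes the array numbered 1 had the highest ratio and the array numbered 3 the lowest. Whether arrays of 2 groups overlap was judged on the normalised scale, which can differ from the deposited signals.

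The mutant colons gave lower signals for Shmt1 itself, for Trim16 and for Fmo2, and these were the only calls. Of the 13576 probe sets, 3 passed, which is 0.0221%, and all 3 were lower in the mutant.

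The passing Shmt1 probe set read 297.9, 274.4 and 337 in the heterozygous arrays and 116.9, 120 and 113.1 in the mutant arrays. The groups did not overlap, and the difference was -1.25 (SE 0.134, n = 3 per genotype), or 2.37-fold, with an adjusted p of 0.00939 in limma. Its wild-type mean was 594.7 ± 43.2 (SD, n = 3), so the heterozygous colons lay between the other genotypes. A second, brighter Shmt1 probe set read 495.6, 388.5 and 369.7 against 246.3, 287.4 and 241.4, a difference of -0.64 that did not pass (adjusted p = 0.5). Another differed by -0.41 (adjusted p = 0.623). The fourth was too dim to be tested, at 17.9, 33.2 and 17.2 in heterozygous and 9.9, 4 and 3.8 in mutant colons. In all 4 probe sets the 3 mutant signals lay under the 3 heterozygous ones. The passing probe set kept a signal of at least 113.1 in every mutant colon. Testing began at a linear signal of 75.5, a cut on the mean normalised level of 9 arrays and not a limit of detection. Whether Shmt1 RNA remained in the mutant colons was not tested.

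Trim16, which encodes a tripartite-motif protein linked to ubiquitin transfer and autophagy of damaged organelles, had the largest difference on the array. Its signals were 487.6, 649.4 and 593.7 in heterozygous colons and 62.4, 70 and 65.4 in mutant colons. The mutant values lay far under the heterozygous ones and close to each other, with a difference of -2.82 (SE 0.125), or 7.07-fold, and an adjusted p of 1.56e-06 in limma. The wild-type mean of 907.8 ± 59 (SD, n = 3) was the highest of the 3 genotypes. A second Trim16 probe set differed by only -0.33 and did not pass (adjusted p = 0.749), so the probe sets of this gene disagree in size. Whether the lower signal of the first reflects less RNA or weaker binding of its probes to the mutant's allele was not tested.

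Fmo2 encodes a flavin-containing monooxygenase, an enzyme that oxidises nitrogen and sulfur atoms of drugs and other small molecules. The passing probe set read 246.6, 222.9 and 267.3 in heterozygous and 86.5, 90 and 119.1 in mutant colons, a difference of -1.16 (SE 0.136; adjusted p = 0.0144 in limma). The brighter Fmo2 probe set gave much the same difference, -1.20 (SE 0.182), with an adjusted p of 0.1. It read 478.9, 416.5 and 460.7 against 199.7, 177.8 and 179.3, again without overlap. Unlike Shmt1 and Trim16, Fmo2 was highest in the heterozygous colons, with a wild-type mean of 150.1 ± 16.5 (SD, n = 3) in the passing probe set, between both groups. Fmo1, a second enzyme of the family, read 482.4, 322.5 and 363.4 against 167.5, 267.2 and 188.2 (difference -0.85, not passed), and Fmo5 differed by -0.10 with overlapping arrays. The call for Fmo2 was lost without heterozygous array 1 (adjusted p = 0.0717), without heterozygous array 3 (0.0529), without mutant array 1 (0.108) and without mutant array 2 (0.143). That for Shmt1 was lost without heterozygous array 1 (0.063) and without mutant array 2 (0.0856), while its difference stayed at -1.2 and -1.25.

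**Figure D1:**
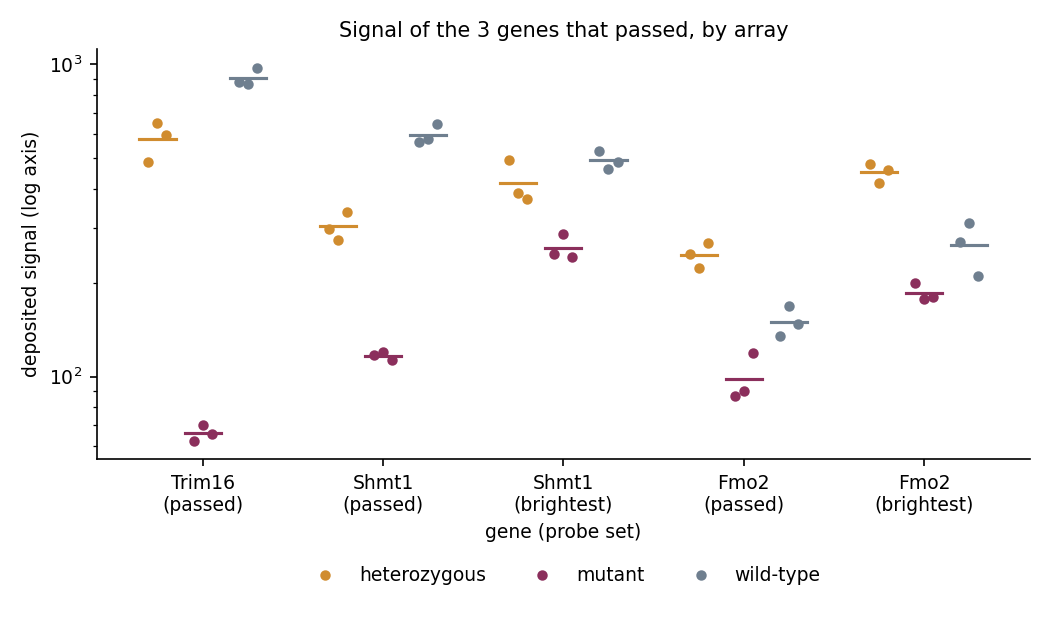
Deposited signal (log axis) of the passing probe sets of Trim16, Shmt1 and Fmo2 and of the brightest probe sets of Shmt1 and Fmo2. Points are single arrays, replicates 1 to 3 from left to right within each genotype, and bars are means of 3. In all 5 the mutant points lie under the heterozygous points, and the wild-type points lie highest for Trim16 but between the others for Fmo2.

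Trim16 and Shmt1 lie on chromosome 11 with 35 protein-coding genes between them in the gene order of assembly GRCm38.p6. Backcrossing leaves a stretch of the donor strain around an altered gene, so the neighbours were looked at, in a window of 40 protein-coding genes on each side that was set after their values had been seen. Of the 37 tested neighbours, 7 had an unadjusted p under 0.05, or 18.9%, where the share over all 8202 genes was 7.61%. Trim16 was itself 1 of these 7, and it alone passed the adjustment. Among the 7 were Mfap4 (0.80), Specc1 (-0.38), Tom1l2 (-0.36), Srebf1 (0.36), Dhrs7b (0.35) and Mrpl55 (-0.34), named here after their values were seen. Neighbours thus differed in both directions. Trim16 (-2.82) had the largest difference among the tested neighbours, and Mfap4 (0.80) the next largest in size. The origin of the alleles in this stretch was not tested.

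Beyond the 3 calls, 1027 probe sets had an unadjusted p under 0.05, 553 of them higher and 474 lower in the mutant, where 679 would be expected by chance. Only 44 tested probe sets differed by more than 2-fold, 18 higher and 26 lower. The wild-type mean lay between the heterozygous and the mutant mean in 779 of the 1027, or 75.9%, against 37.4% of all tested probe sets. It lay nearer to the mutant than to the heterozygous mean in 653, or 63.6%, against 56.3% of all. A wide gap between both genotypes leaves more room for the wild-type mean to fall inside it, so these shares only describe the 1027.

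**Figure D2:**
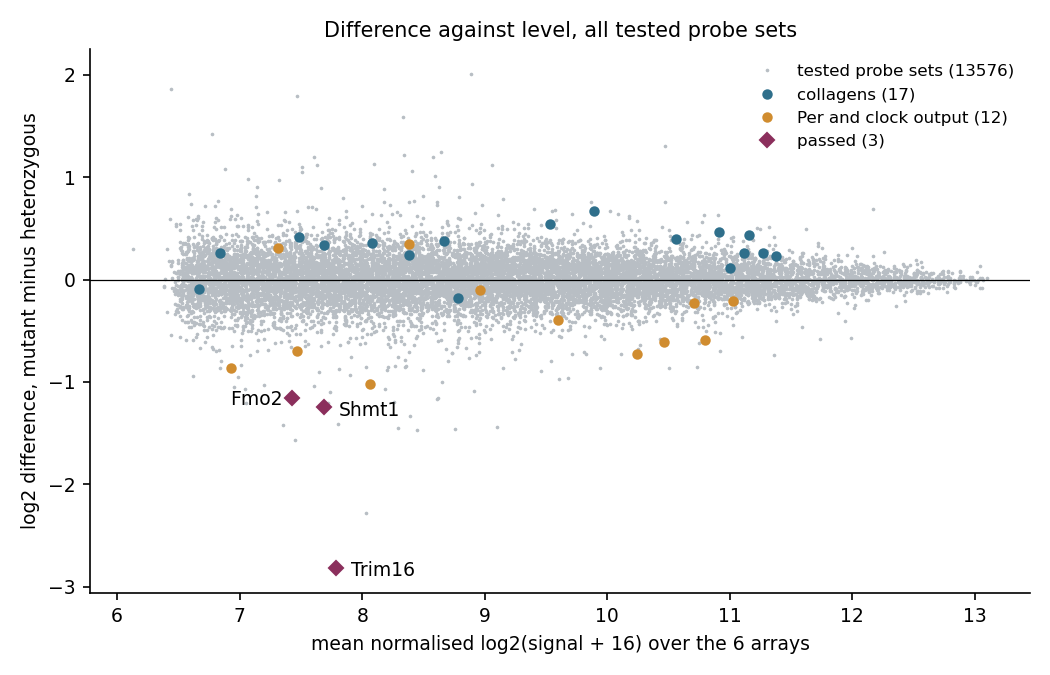
Difference between mutant and heterozygous colons (log2, y axis) against the mean normalised log2 signal of the 6 arrays (x axis) for 13576 tested probe sets. The passing probe sets of Trim16, Shmt1 and Fmo2 lie below -1, the collagens mostly lie above 0 and the Per and clock-output genes mostly below 0.

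Among the genes that stood next in line, none passed, and their adjusted p-values in limma ran from 0.132 to 0.322 for the 15 with the smallest p that were higher in all mutant arrays. Ahcyl2, which encodes an inactive relative of S-adenosylhomocysteine hydrolase, read 219.5, 258.4 and 364.1 in heterozygous and 482.6, 548.9 and 559.1 in mutant colons (0.91, SE 0.147). Its other tested probe sets differed by -0.06 and 0.04, so this value belongs to 1 of several. Bag2, a co-chaperone of Hsp70, read 86.2, 92.8 and 89 against 130.4, 171.8 and 238.5 (0.91). Ppa1, the cytosolic pyrophosphatase, read 903.4, 725.9 and 834.2 against 1294.5, 1247.9 and 1355.9 (0.67). Hao2, a peroxisomal hydroxyacid oxidase, differed by 0.51, and Ccn3, a matricellular protein, by 0.76. Chrdl2, a secreted antagonist of bone morphogenetic proteins, read 68.8, 34.1 and 57.8 against 231.4, 117.9 and 153.7 (1.42), and Rasd2 and Sprr1a differed by 1.22 and 1.13. In 13 of these 15 genes the wild-type mean lay between the other genotypes.

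Among genes lower in all mutant arrays, Rcsd1, which encodes a protein that binds the actin-capping complex, read 419.2, 429.2 and 378.7 in heterozygous and 157.6, 207.8 and 185.3 in mutant colons (-1.07, SE 0.19, adjusted p = 0.173 in limma). Lepr, the leptin receptor, read 163.2, 216.3 and 216.8 against 83.5, 103.8 and 70.4 (-1.03). Sla, an adaptor of lymphocyte and myeloid receptors, read 187.4, 307.7 and 302.9 against 128.5, 133.3 and 125.2 (-0.90). Ccl11, the chemokine eotaxin that attracts eosinophils, read 260.3, 437.3 and 369.9 against 58.9, 170.3 and 164.3 (-1.41). None of these 4 overlapped between the genotypes and none passed. Smaller differences of the same kind were those of Celf2 (-0.52), Hmga2 (-0.55) and Flt4 (-0.70), the last a receptor of lymphatic endothelium.

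The genes were then described in 44 lists of pathways and cell types, of which 41 had at least 3 measured members. Over all 8202 genes the median difference was 0.02 and 4474, or 54.5%, were higher in the mutant. The 3 mutant arrays lay above the 3 heterozygous ones in 596 genes, or 7.27%, and below in 410, or 5%. No member of any list passed on its brightest probe set, so the values below are described and not called. The collagens had the highest list median, 0.34, and the flavin-containing monooxygenases the lowest, -0.85 over 3 genes.

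**Figure D3:**
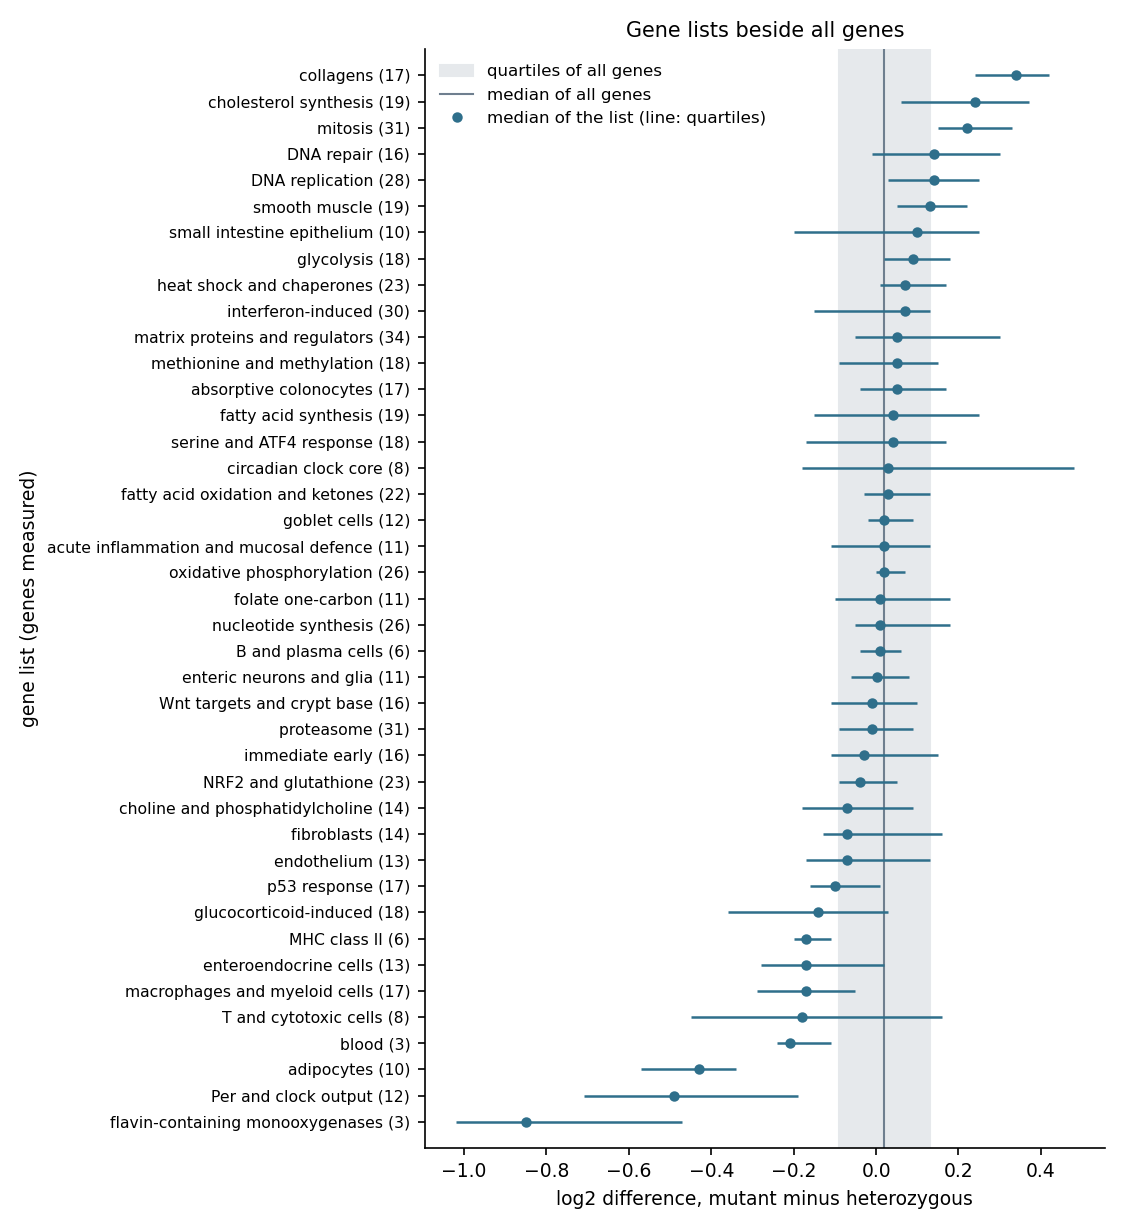
Median difference between mutant and heterozygous colons (log2) for 41 gene lists, with the number of genes measured in brackets and the quartiles as lines. The grey band and line give the quartiles and the median of all 8202 genes; collagens (0.34), cholesterol synthesis (0.24) and mitosis (0.22) lie to the right, and adipocytes (-0.43), Per and clock output (-0.49) and the monooxygenases (-0.85) to the left.

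The daily clock is a loop in which Arntl, with Clock or Npas2, drives Per and Cry genes through E-box sites, and the Per and Cry proteins then hold Arntl and Clock back. Arntl RNA peaks at about the opposite time of day from the Per genes and from the output factors Dbp, Tef and Hlf. The labels give no time of day at which the colons were taken. Of 12 measured genes of the Per and output list, 10 were lower in the mutant, with a median of -0.49. In 5 of the 12 the mutant arrays all lay below the heterozygous arrays, beside 5% of all genes.

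Tef, a transcription factor of clock output, read 1770.1, 1488.8 and 1438.8 in heterozygous and 929.2, 936.7 and 905.8 in mutant colons (-0.73, SE 0.142, adjusted p = 0.191 in limma). Hlf, a factor of the same family, read 163.9, 158.4 and 132.5 against 81, 75.6 and 61.9 (-0.86, SE 0.188). Per1 read 179.8, 253.5 and 210.2 against 100.5, 110.4 and 159.5 (-0.70). Per2 read 456, 320.7 and 333 against 114.1, 149.2 and 276.5 (-1.02, SE 0.282). Mutant array 3 was the nearest to the heterozygous values for both Per genes. Usp2, a deubiquitinase under clock control and named after its values were seen, differed by -0.59, also without overlap. Per3 (-0.61), Nr1d2 (-0.23) and Dbp (-0.21) overlapped. The 2 higher genes of the list were Nfil3 (0.31) and Nr1d1, named after their values were seen. Averaged over the 12 genes, the normalised log2 level was 9.55, 9.39 and 9.14 in heterozygous, 9.03, 9 and 8.85 in mutant and 9.27, 9.35 and 9.05 in wild-type arrays, so the mutant arrays were all lowest. Without heterozygous array 1 the list median was -0.30 and without mutant array 3 it was -0.25, in both cases still with 10 of 12 lower.

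On the other limb, Arntl read 59.1, 98.4 and 230.7 in heterozygous and 233.7, 230.8 and 273.9 in mutant colons (1.05, SE 0.341, adjusted p = 0.601 in limma). Heterozygous array 3 lay just under the mutant range and the other heterozygous arrays far below it. Npas2 read 176.2, 338.7 and 540.6 against 534.4, 491.4 and 710.2 (0.81), with overlap. In the core list of 8 genes, 4 were higher and 4 lower, with Cry1 at 0.37, Csnk1d at 0.13, Clock at -0.32, Cry2 at -0.19, Csnk1e at -0.18 and Bhlhe40 at -0.07. So Arntl and Npas2 were higher and Per1, Per2, Tef and Hlf lower. Cry1, Nfil3 and Nr1d1 were also higher and Clock lower, and none of these genes passed. In the wild-type colons Arntl read 177.2, 104.3 and 192.8 and Per2 200.4, 443.8 and 262.6. In the wild-type and in the heterozygous colons the array with the lowest Arntl had the highest Per2. In the mutant colons array 3 had the highest signal of both genes, so the arrays of that genotype did not show this order.

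**Figure D4:**
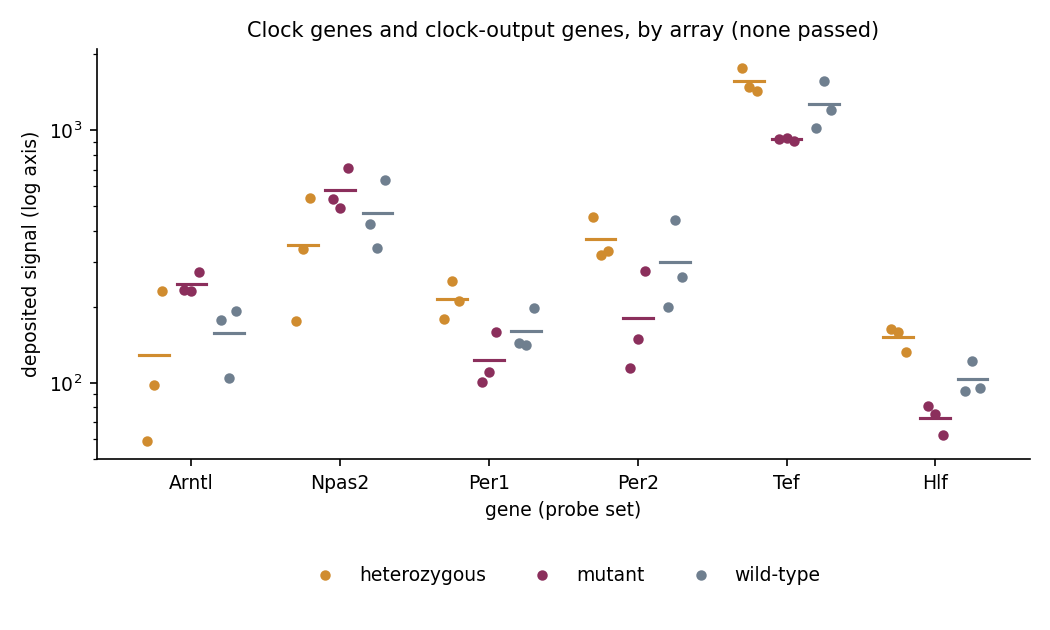
Deposited signal (log axis) of Arntl, Npas2, Per1, Per2, Tef and Hlf by array. Points are single arrays, replicates 1 to 3 from left to right, and bars are means of 3 per genotype. Mutant colons lie highest for Arntl, with heterozygous array 3 at their lower edge, and lowest for Tef and Hlf.

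Promoter sequence was read for some lists whose members mostly differed in 1 direction, to show which known sites they hold. The core clock list, with 4 genes higher and 4 lower, was read as well. RefSeq windows of 300 bases, from 250 before to 50 after a gene's start (build GRCm38.p6, 32851 windows), were searched on both strands for 11 motifs in 8 lists, and the motifs and promoters given here were chosen after the matches had been seen. The E-box CACGTG occurred in 7.15% of all windows and in 2 of the 10 Per and output genes that have a window, Per1 and Tef. It was also in 3 of 15 cholesterol synthesis, 3 of 14 glucocorticoid-induced and 1 of 6 core clock genes, in 1 of 27 mitosis and 1 of 21 replication genes, and in none of 14 collagens or 14 smooth muscle genes. Here and below, list counts are of genes, and a gene with several windows has more chances to match. By window, the E-box was in 25% of Per and output, 16.7% of cholesterol synthesis and 13.0% of glucocorticoid-induced windows. For core clock, replication and mitosis windows the shares were 8.33%, 4.17% and 3.45%. The 250 bases before the start of Per1 and Tef are shown with the E-box in capitals, Per1 from chr11:69098699-69098948 and Tef from chr15:81811164-81811413, both on the plus strand.
Per1: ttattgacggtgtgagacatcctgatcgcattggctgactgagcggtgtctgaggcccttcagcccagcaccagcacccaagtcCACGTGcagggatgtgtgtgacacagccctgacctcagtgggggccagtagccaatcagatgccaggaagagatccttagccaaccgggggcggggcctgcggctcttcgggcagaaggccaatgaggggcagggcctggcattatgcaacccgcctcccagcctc
Tef: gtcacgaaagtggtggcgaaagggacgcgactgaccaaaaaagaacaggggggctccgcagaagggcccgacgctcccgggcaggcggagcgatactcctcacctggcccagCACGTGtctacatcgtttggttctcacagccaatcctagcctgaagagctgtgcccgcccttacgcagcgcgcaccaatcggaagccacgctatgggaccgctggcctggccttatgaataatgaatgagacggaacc
The match began 166 bases before the start in Per1 and 138 in Tef. Per1 has a second window without a match and Tef a second one with a match. The longer RORE core TAGGTCA, a site of Ror and Rev-erb receptors, was in 2.61% of windows and in 1 of 6 core clock genes, Arntl. The match in Arntl did not lie wholly within the 250 bases before the start, and a second Arntl window had none. The core was also in 1 of 10 Per and output genes, Nfil3. It was in 1 of 15 cholesterol synthesis, 2 of 27 mitosis and 1 of 21 replication genes. None of 14 collagens, 14 smooth muscle or 14 glucocorticoid-induced genes held it.

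Genes induced by glucocorticoids, the adrenal hormones that also follow the time of day, were mostly lower as well. Of 18 measured genes 13 were lower, with a median of -0.14, and 7 had an unadjusted p under 0.05, 5 lower and 2 higher, beside 7.61% of all genes. Tsc22d3, known as Gilz, read 1165.1, 991.8 and 1354.8 in heterozygous and 654.3, 629.2 and 802.8 in mutant colons (-0.73, SE 0.141), and its second probe set differed by -0.84 (adjusted p = 0.171 in limma). Klf9, a Krüppel-like factor, read 3524.1, 3211 and 3064.6 against 2918.2, 2504.2 and 2432.4 (-0.34, SE 0.0641, adjusted p = 0.186). The other 4 Klf9 probe sets were also lower, by 0.1 to 0.26 in size. Pik3r1, a regulatory subunit of phosphoinositide 3-kinase, differed by -0.39. Against these, the sodium channel subunit Scnn1a, which corticosteroids induce in colon epithelium, read 230.2, 179.9 and 192.1 against 308.9, 326.8 and 230.2, a difference of 0.49 with the groups touching. The list median was -0.08 without heterozygous array 3 and -0.07 with arrays centred on their medians.

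Collagens, the triple-helical proteins of the matrix and basement membrane, were mostly higher in the mutant. Of 17 measured collagen genes 15 were higher, with a median of 0.34 against 0.02 for all genes. In 6 of 17 the mutant arrays all lay above the heterozygous ones, beside 7.27% of all genes, and 9 had an unadjusted p under 0.05, beside 7.61%.

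Col5a2, a chain of the fibril-nucleating collagen V, read 661, 696.9 and 876.5 in heterozygous and 1231.9, 1250.5 and 1086.8 in mutant colons (0.67, SE 0.126, adjusted p = 0.186 in limma). Col6a3, a chain of the beaded-filament collagen VI, read 563.6, 577.5 and 661 against 808, 915.6 and 905.1 (0.54, SE 0.104). Col4a2 read 1765.5, 1538.7 and 1592.3 against 2544.3, 2263.4 and 2014.8 (0.47), and its basement-membrane partner Col4a1 read 1209.1, 1273.1 and 1455.7 against 1754.3, 1835.1 and 1626 (0.40). These 4 genes did not overlap between the genotypes, and a second Col4a1 probe set differed by 0.04. The 3 measured collagen V chains and the 3 collagen VI chains were all higher, by 0.26 to 0.67. Interstitial Col1a1 and Col1a2 differed by 0.23 and 0.26 with overlap, and Col3a1 by 0.11. Col4a5 (-0.18) and Col14a1 (-0.09) were the 2 lower ones. The mean log2 level over the 17 genes was 9.26, 9.16 and 9.26 in heterozygous, 9.58, 9.56 and 9.45 in mutant and 9.51 to 9.54 in wild-type arrays. The heterozygous colons were thus the ones that stood apart, with the wild-type arrays inside the mutant range. The median stayed between 0.26 and 0.38 with each of the 9 arrays left out.

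The 34 measured matrix proteins and regulators had no shared direction, with 19 higher, 15 lower and a median of 0.05 that was -0.02 without heterozygous array 1. Fmod, a small proteoglycan that binds collagen fibrils, read 174.6, 203.7 and 220.2 against 471.4, 342.9 and 335.9 (0.89), and a dimmer probe set 15.7, 39.6 and 43.9 against 207.3, 123.5 and 126.2 (1.86, adjusted p = 0.132 in limma). Mmp14, a membrane-bound collagenase, read 232.7, 204.6 and 267.8 against 434.5, 350.4 and 345.1 (0.66). Timp3, an inhibitor of matrix proteases, was lower in all 3 of its tested probe sets, by 0.46 to 0.56 in size. The brightest read 1257, 1451.6 and 1441.2 against 810.8, 1034.6 and 1111.6. Mfap4, an elastic-fibre protein and also a chromosome 11 neighbour of Shmt1, differed by 0.80.

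Smooth muscle genes, from the contractile layers of the colon wall, were higher in 17 of 19, with a median of 0.13. In 5 of 19 the mutant arrays all lay above, beside 7.27% of all genes. Cnn1, the actin-binding calponin, read 1399, 1413.5 and 1757.1 in heterozygous and 2663.9, 2100.7 and 2395.5 in mutant colons (0.63, SE 0.126, adjusted p = 0.191 in limma). Casq2, which stores calcium, read 223.7, 242.4 and 260 against 392.4, 387.4 and 360.8 (0.63). Smtn differed by 0.33 and Cald1 by 0.16. Some abundant contractile genes differed less, with Acta2 at 0.15, Tagln at 0.08, Mylk at 0.05 and Myh11 at -0.00107, these 4 named after their values were seen. Without mutant array 1 the list median was 0.06.

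**Figure D5:**
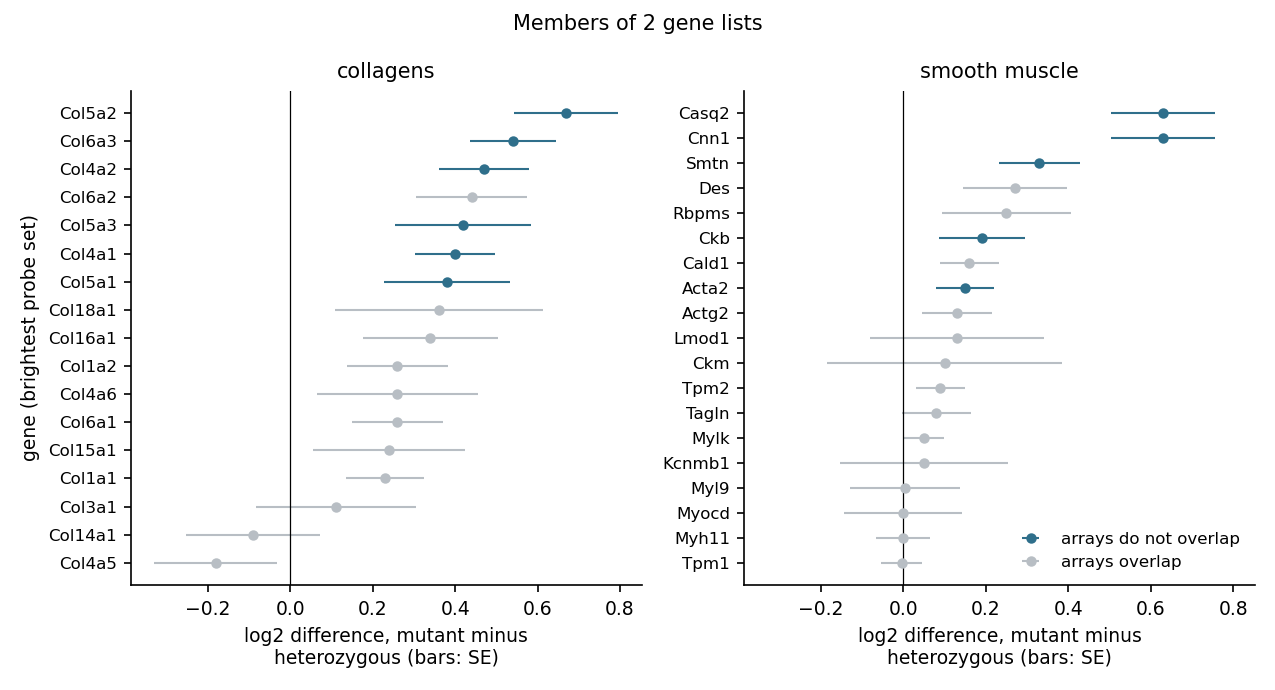
Difference between mutant and heterozygous colons (log2, x axis) for each measured collagen gene and smooth muscle gene, with the SE of the fit as bars. Blue points are genes whose 3 mutant arrays lie beyond the 3 heterozygous ones: 6 of 17 collagens and 5 of 19 smooth muscle genes.

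Mitosis genes, which act in spindle assembly and chromosome separation, were higher in 28 of 31, with a median of 0.22. Cenpf, a kinetochore protein, read 280.4, 186.1 and 202.3 in heterozygous and 412.9, 329 and 375.4 in mutant colons (0.73, SE 0.198, adjusted p = 0.496 in limma), without overlap. Cdc20, which switches on the anaphase-promoting complex, read 382.7, 363 and 255 against 548.3, 412.4 and 507.4 (0.55). Mad2l1, a spindle checkpoint protein, read 294, 288.2 and 278.1 against 391.7, 329.1 and 389.8 (0.35), and Ccna2, cyclin A, differed by 0.32. For Cenpf and Cdc20 the wild-type means, 217.2 ± 12.4 and 304.8 ± 14.1 (SD, n = 3), lay below the heterozygous means. Averaged over the list, the log2 level was 8.85, 8.39 and 8.72 in mutant and 8.55, 8.49 and 8.25 in heterozygous arrays, so mutant array 2 lay within the heterozygous range. The median was 0.12 without heterozygous array 3 and 0.11 without mutant array 1.

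DNA replication genes, which load and run the replication fork, were higher in 24 of 28 but by less, with a median of 0.14, and none had an unadjusted p under 0.05. Mcm10 (0.45), Orc2 (0.24), Rfc5 (0.27) and cyclin E2, Ccne2 (-0.37), had the smallest p. This median was 0.35 without heterozygous array 1, 0.07 without heterozygous array 2 and 0.04 without heterozygous array 3, so single heterozygous arrays set its size.

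The promoters of both lists held different known sites. The cell-cycle homology region (CHR) TTTGAA, which is bound by the DREAM complex and B-Myb, was in 17.9% of all windows, in 21 of 27 mitosis genes with a window and in 1 of 21 replication genes. The CCAAT box was in 37.4% of windows, in 23 of 27 mitosis genes and in 14 of 21 replication genes. Both motifs occurred together in 6.95% of windows and in 20 mitosis genes, where no matches shared bases. The E2F site TTTGGCGC was in 0.514% of windows, in 6 of 21 replication genes and in 1 of 27 mitosis genes. The sites did not follow the size of the difference: mitosis genes with and without a CHR both had a median of 0.22, and replication genes with and without the E2F site had medians of 0.18 and 0.19. The promoter of Cdc20, chr4:118437344-118437593 on the minus strand, is shown with its CHR in capitals, and that of the helicase subunit Mcm5, chr8:75109259-75109508 on the plus strand, with its E2F site in capitals, read there from the other strand. Mcm5 was chosen after its values were seen, with a difference of 0.27.
Cdc20: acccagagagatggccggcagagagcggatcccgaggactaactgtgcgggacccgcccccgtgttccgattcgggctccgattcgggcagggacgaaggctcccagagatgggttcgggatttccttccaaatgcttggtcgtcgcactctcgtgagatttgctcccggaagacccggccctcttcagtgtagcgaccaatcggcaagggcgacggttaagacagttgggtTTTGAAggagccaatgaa
Mcm5: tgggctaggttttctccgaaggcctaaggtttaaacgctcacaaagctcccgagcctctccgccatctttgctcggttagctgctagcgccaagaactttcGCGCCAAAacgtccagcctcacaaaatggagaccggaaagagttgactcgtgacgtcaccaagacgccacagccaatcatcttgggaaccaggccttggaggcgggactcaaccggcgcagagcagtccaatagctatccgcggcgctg
The CHR began 18 bases before the start of Cdc20, and the E2F site 149 bases before that of Mcm5.

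Cholesterol synthesis genes, most of which are driven by the sterol-sensing factor SREBP-2, were higher in 16 of 19, with a median of 0.24. Mvd, which makes isopentenyl diphosphate, read 409.1, 264.8 and 216.2 in heterozygous and 689.8, 455.1 and 386.5 in mutant colons (0.76, SE 0.303, adjusted p = 0.649 in limma). Lss, which closes the sterol rings, read 611, 471.4 and 479.4 against 806.5, 713.5 and 646.8 (0.46). Nsdhl read 877.4, 849.6 and 662.4 against 1003.4, 1004.6 and 1078.1 (0.38), the only one of the list without overlap on the normalised scale by its brightest probe set, and Msmo1 differed by 0.37. In both genotypes Mvd was highest in array 1 and lowest in array 3, and the heterozygous and mutant ranges overlapped. The median was 0.14 without heterozygous array 3 and 0.13 without mutant array 1. All 15 cholesterol genes with a promoter window held a CCAAT box, and 1 of 15, Hmgcs1, the sterol element TCACNCCAC, which 1.24% of all windows hold.

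Fatty acid synthesis genes were split, 10 higher and 9 lower. Elovl6, an elongase of long-chain fatty acids, read 1518, 1408.1 and 1462 against 1727.1, 2302.7 and 1856.8 (0.43), while a second probe set differed by 0.06. Acss2, which makes acetyl-CoA from acetate, differed by 0.30 and Srebf1 by 0.36, all 3 without overlap. Fasn, the fatty acid synthase, differed by -0.41 with overlap.

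The folate enzymes other than Shmt1 showed no shared direction. Of 10 measured folate one-carbon genes besides Shmt1, 6 were higher and 4 lower, and the median with Shmt1 included was 0.01. Ggh, which trims folate polyglutamates, read 842.6, 750.2 and 929.3 in heterozygous and 1148.9, 1072.1 and 945.5 in mutant colons (0.32, SE 0.132, adjusted p = 0.649 in limma). Slc46a1, the proton-coupled folate transporter, read 227.7, 237.9 and 193.8 against 321, 298.5 and 257 (0.41), which on the normalised scale overlapped. Mthfd1, the cytosolic trifunctional folate enzyme, differed by 0.18 and Shmt2 by 0.05, with signals of 213.9, 135.8 and 143.9 against 146.8, 184.9 and 159.5. A difference in Shmt2 was thus not detectable among these arrays.

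Nucleotide synthesis genes were 13 higher and 13 lower. Prps2, which makes the ribose donor phosphoribosyl pyrophosphate, read 141.1, 134.9 and 169.2 against 68, 93.6 and 96.6 (-0.65, SE 0.15, adjusted p = 0.348 in limma), without overlap. The salvage enzymes Uck2, for uridine and cytidine, and Aprt, for adenine, differed by 0.39 and 0.22. Among methionine and methylation genes, 12 of 18 were higher with a median of 0.05, and the salvage enzyme Apip, at -0.37, was the one with an unadjusted p under 0.05. Choline and phosphatidylcholine genes were lower in 9 of 14. Against them, Pcyt2, which makes the phosphatidylethanolamine precursor, read 1421, 1084.8 and 1039.3 against 1818.9, 1736 and 1473.1 (0.51), and the acyltransferase Lpcat3 differed by 0.34.

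Genes of damage and stress responses were mixed. DNA repair genes were higher in 11 of 16 (median 0.14, and 0.27 without heterozygous array 1), with Xrcc1, a scaffold of single-strand break repair, at 0.53 and Rpa1, which coats single-stranded DNA, at 0.44. Among genes of the p53 response 12 of 17 were lower (median -0.10), led by Trp53inp1, which read 2944.6, 2875.8 and 3167.7 against 2869.8, 2311.2 and 1885.7 (-0.40). Serine and ATF4 genes were 9 higher and 9 lower, with the stress-induced Ddit4 at -0.41 and asparagine synthetase, Asns, at 0.28. Heat shock genes and chaperones were higher in 18 of 23 (median 0.07), with Hspb1 at 0.44 and the ER chaperone Dnajb9 at -0.34. Among glutathione genes, Gsta3 read 173.8, 169.1 and 191.5 against 86.9, 110.5 and 106.5 (-0.69, adjusted p = 0.191 in limma) and Gsta2 differed by -1.07, while Gstm3 differed by 0.36. That list was lower in 13 of 23, with a median of -0.04 that became 0.01 with arrays centred on their medians.

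Glycolysis genes were higher in 17 of 18, but the median was only 0.09. Hk1, the first enzyme of glycolysis, read 1160.7, 1103.2 and 1037.2 in heterozygous and 1413.2, 1537 and 1427.4 in mutant colons (0.41, SE 0.0972, adjusted p = 0.356 in limma), and the wild-type arrays lay between 1007.8 and 1041.9. Mutant Hk1 values were thus above those of all 6 other arrays. Oxidative phosphorylation genes had a median of 0.02, with Cyc1 at 0.36, and proteasome genes one of -0.01, with Psmb7 at -0.46.

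Among epithelial genes, 2 water channels of surface colonocytes had large but uneven differences. Aqp8 read 30, 44.8 and 311.1 in heterozygous and 645.8, 125.6 and 371.1 in mutant colons (1.79, SE 0.748, adjusted p = 0.654 in limma). Aqp4 read 482, 669.5 and 1997.8 against 3350, 1515.2 and 2286.4 (1.31, SE 0.444). For both genes heterozygous array 3 lay within the mutant range, and wild-type Aqp8 ran from 107.7 to 526.1. The absorptive list as a whole was higher in 11 of 17 with a median of 0.05, and goblet cell genes in 8 of 12 with a median of 0.02. Fcgbp and Clca1, both secreted with mucus, differed by 0.14 and 0.27. A dimmer Clca1 probe set read 173.4, 162.8 and 463.1 against 480.8, 571.8 and 641.5 (1.2), without overlap, so its probe sets disagree in size. Retnlb, a goblet cell protein active against bacteria, read 2207.4, 3580.7 and 5351.9 against 6723, 5309.7 and 5373.4 (0.69), and Lcn2, an iron-siderophore binder of inflamed mucosa, 197.6, 136.6 and 148.5 against 109.9, 80.7 and 53.9 (-0.83). Enteroendocrine genes were lower in 9 of 13 (median -0.17, -0.09 without mutant array 1 and -0.26 without mutant array 2), with neurotensin, Nts, at -0.38 and Insl5 at 0.76. Of small intestine genes, 6 of 10 were higher, with a median of 0.10 that turned to -0.07 over the brighter genes alone, so the list had no stable direction.

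Adipocyte genes were lower in all 10 measured, with a median of -0.43. Adipoq, the hormone adiponectin, read 803, 1566.2 and 947.7 in heterozygous and 312.7, 865 and 909.8 in mutant colons (-0.73, adjusted p = 0.676 in limma). Fabp4 read 3540.5, 4694 and 4061.9 against 1812.9, 3203 and 3393.6 (-0.58), and Car3 4689.6, 4765.3 and 5005.6 against 2401.9, 3797.1 and 3747.9 (-0.57). Mutant array 1 was the lowest of the mutants for 9 of the 10, among them Retn at 454.9 and Cidec at 124.6. Without it the list median was -0.20, and without mutant array 2 it was -0.66. The mean log2 level over the list was 9.32 in that array and ran from 10.06 to 10.58 in the other 8, so 1 colon held much less fat-cell RNA.

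Of 17 macrophage and myeloid genes 13 were lower, the median being -0.17, and in 4 of 17 the mutant arrays all lay below, beside 5% of all genes. Cd163, the haemoglobin scavenger receptor of tissue macrophages, read 249.2, 263.7 and 282.6 in heterozygous and 140.7, 136 and 86.1 in mutant colons (-1.04, SE 0.284, adjusted p = 0.496 in limma). Mrc1, the mannose receptor, read 408.7, 572.1 and 496.1 against 309, 371.9 and 418.8 (-0.41, SE 0.126). The median was -0.32 without heterozygous array 1, -0.29 without mutant array 1, -0.10 without heterozygous array 2 and -0.07 without mutant array 3. Endothelial genes were lower in 8 of 13, with Lyve1, a receptor of lymphatic vessels, at -0.55 and Flt1 at -0.31. Fibroblast genes were 6 higher and 8 lower, with Pdpn at 0.40 and Clec3b at -0.39. Enteric neuron and glia genes had a median of 0.0025 over 11 genes, and none had an unadjusted p under 0.05.

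Interferon-induced genes and genes of T and cytotoxic cells varied between colons within both genotypes rather than between the genotypes. Interferon-induced genes had a median of 0.07 over 30 genes, with mean log2 levels of 7.66, 9.31 and 8.52 in heterozygous and 9.31, 8.19 and 8 in mutant arrays. Heterozygous array 1 was low and mutant array 1 high. The median was -0.42 without either of them and 0.43 without heterozygous array 2, and without the 3 arrays numbered 1 the median became -0.83, with 28 of 30 genes lower. T and cytotoxic cell genes had a median of -0.18 over 8 genes, which was -1.16 without those arrays, -0.85 without heterozygous array 1 and -0.56 without mutant array 1. It was 0.03 without heterozygous array 2 and 0.18 over the brighter genes alone. Ccl5, a chemokine of cytotoxic cells, read 296, 1310.4 and 1015.1 in heterozygous and 1158, 421.2 and 316.5 in mutant colons. Neither list had a direction that held with each array left out, and none of their members passed. One Ighm probe set, of the immunoglobulin mu chain and named after its values were seen, followed the same split, at 10.6, 2328 and 2831.4 in heterozygous and 2864.8, 15.9 and 2.6 in mutant colons. Another Ighm probe set ran the other way, at 582, 255.9 and 113.3 against 117.6, 1235.1 and 900.4, so the probe sets of that gene disagree.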

How the data were processed

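Total RNA (about 50 ng per colon, amplified with the NuGEN Ovation kit) had been hybridised to an Affymetrix mouse array. The authors deposited intensities, as 1 linear signal per probe set. The submitters' processing notes name GCOS, with its version and scaling not given in the sources used here. Because array medians spread over 0.294 on the log2 scale, above a limit of 0.2, log2(signal + 16) was quantile normalised over 9 arrays. The 40% dimmest probe sets and 64 controls were left out. limma 3.58.1 in R 4.3.3 was fitted once to all 9 arrays, with eBayes allowed a trend of the variance on the level, and the contrast compared 6. The fit was also run on simulated data whose noise was drawn independently for every probe set and array. Such data cannot show how the fit handles variation that many probe sets of an array share. The labels call replicates biological, and only 3 arrays per genotype limit the precision.

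Gene names came from the platform annotation: of 13576 tested probe sets, 12489 have 1 symbol, 448 several and 639 none. Named are the Shmt1 probe sets, those that passed, per direction the 15 smallest p and 5 largest differences without overlap, and 4 genes per list (lists of up to 10 whole). Any other gene in the text was chosen after its values were seen. Members and lists were chosen with earlier results of these data known. Eif2s3y, on the Y chromosome, was high (1575 to 1964) in all 6 arrays.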

Additional observations from a re-analysis of the deposited data

How the results depend on the processing

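The 3 calls, all lower in the mutant, were 2 as deposited, with the 60% dimmest or no probe sets left out, 4 with array weights and 5 over only the 6 arrays compared. The replicate number as a block gave 8, 1 of them higher (Chrdl2 at 1.42), and moved the probe sets with an unadjusted p under 0.05 from 1027 to 1767. Mutant and heterozygous arrays of the same number had correlations of deviations of -0.05, -0.059 and 0.219, not all over 0.1, so the numbers were not taken as pairs. Arrays of unlike number ran from -0.217 to 0.23. These few correlations cannot show whether arrays of the same number shared a batch. The actin ratio did follow the number in all 3 genotypes, at 4.45, 4.84 and 5.02 for arrays 1 against 2.57, 2.73 and 2.52 for arrays 3. So did the median signal, at 136.1, 130.6 and 129.4 for arrays 1 against 161.8, 162.2 and 158.2 for arrays 3. Leaving out single arrays gave 1 to 7: 1 without heterozygous array 1 or mutant array 2, 5 or 6 without wild-type array 1 or 3, and 7, of which 5 were higher, without heterozygous array 3 (Spon2, Rasd2, Ahcyl2, Adamts4 and Clca1). Without the arrays numbered 1, whose actin ratio was high, there were again 3, but only Trim16 was shared; the others were Ighm and Ms4a4b. Trim16 passed under all 21 alternatives. Shmt1 ranged from -1.33 to -1.16 with single arrays left out and was -1.27 without the arrays numbered 1 (adjusted p = 0.0595 in limma). Fmo2 was also lost as deposited (0.0593), with no probe sets left out for dimness (0.053) and without the arrays numbered 1 (0.0918); why a call was lost was not tested.

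Of the list medians, those that moved by more than the spread between arrays were, with arrays centred on their medians, 0.04 for Wnt targets, 0.08 for oxidative phosphorylation and 0.09 for goblet cells. Over the brighter genes alone, Per and clock output had -0.31 and small intestine -0.07. A pseudocount of 64 gave 0.28 for collagens. With single arrays left out, medians ran from -0.02 to 0.05 for Wnt targets, -0.63 to -0.25 for Per and clock output, 0.26 to 0.38 for collagens, 0.06 to 0.17 for smooth muscle and -0.12 to 0.08 for enteric neurons. Without the arrays numbered 1, medians were -0.83 for interferon-induced genes, -0.48 for MHC class II, 0.08 for goblet cells and -1.16 for T cells. Centring moved the median of all genes from 0.02 to 0.05. Signs turned for some genes, not all of them near 0. Fmo5 turned to 0.05 (array weights) and 0.13 (without the arrays numbered 1), and Jchain to 0.03 (centred). Hbb-b2 turned to 0.15 (array weights), 0.01 (pseudocount 64) and 0.44 (without the arrays numbered 1). Junb and Psmb10, at 0.24 and 0.13 in the main fit, turned to -0.04 and -0.05 (both without the arrays numbered 1). With single arrays left out, Ano1 ran from -0.28 to 0.06, Fmo5 from -0.28 to 0.11, Hbb-b2 from -0.46 to 0.25, Jchain from -0.18 to 0.05, Psmb10 from -0.01 to 0.24 and Xbp1 from -0.01 to 0.14.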
